A study of Mus musculus with 7 samples.

Results

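The 10 genes described here are markers of the 2 neuron types that build the circuit of the cerebellar cortex. Pcp2, Itpr1, Ppp1r17 and Slc1a6 mark Purkinje cells, and Zic1, Zic2, Zic4, Neurod1, Barhl1 and Fat2 mark granule cells. The genes were listed by symbol, by a rule that uses no measured value, although the set was proposed with earlier results of these data known, and each symbol matched 1 row, giving 10 of the 48526 genes in the deposited table. RNA from brains of mice aged 24 months was sequenced in 7 libraries. The 4 on libraries come from animals labelled V1SSV2, DT Venus and Glucose, and the 3 off libraries from animals labelled V1SSV2, DT Venus and Dox, so both groups carry the constructs and the same fluorescent protein label. Whether a difference goes with doxycycline or with the constructs cannot be told apart, because every off animal is labelled Dox and no on animal is. The sources used here name no brain region, strain or promoter, and do not say that each library is its own animal. Each p-value therefore reflects the spread among these 7 samples, which may be technical.

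Purkinje cells are the large inhibitory neurons that form the sole output of the cerebellar cortex, and granule cells are the small, very numerous excitatory neurons whose parallel fibres contact Purkinje cell dendrites. At these contacts glutamate acts through phospholipase C beta and IP3 to open the calcium channel encoded by Itpr1. Several of the genes are also used outside the cerebellum: Itpr1 in cortex, hippocampus and striatum, Neurod1 in dentate granule cells, and Zic genes in olfactory bulb, septum, thalamus and meninges. In whole tissue RNA, fewer cells of a type and less RNA per cell cannot be told apart.

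Sequences from the RefSeq promoter table (GRCm38.p6) are shown for 3 of the 7 genes that matched it. These are Fat2 and Neurod1, the granule cell genes with the largest differences, and Pcp2, the gene with the largest negative difference. Each window runs 5′ to 3′ from 250 bases before to 50 bases after a RefSeq start, all on the minus strand, at chr11:55312208-55312507 for Fat2, chr2:79456587-79456886 for Neurod1 and chr8:3625498-3625797 for Pcp2. Capitals mark an E-box, the letters CANNTG bound by Neurod1 and other bHLH factors, or the core letters CAGCAGG of Zic binding sites on either strand.
Fat2: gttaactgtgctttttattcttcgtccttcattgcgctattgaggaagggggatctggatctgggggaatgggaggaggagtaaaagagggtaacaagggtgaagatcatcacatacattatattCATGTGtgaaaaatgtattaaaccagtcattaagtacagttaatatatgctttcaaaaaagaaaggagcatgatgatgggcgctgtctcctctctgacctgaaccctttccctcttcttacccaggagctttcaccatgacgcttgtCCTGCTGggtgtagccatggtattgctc
Neurod1: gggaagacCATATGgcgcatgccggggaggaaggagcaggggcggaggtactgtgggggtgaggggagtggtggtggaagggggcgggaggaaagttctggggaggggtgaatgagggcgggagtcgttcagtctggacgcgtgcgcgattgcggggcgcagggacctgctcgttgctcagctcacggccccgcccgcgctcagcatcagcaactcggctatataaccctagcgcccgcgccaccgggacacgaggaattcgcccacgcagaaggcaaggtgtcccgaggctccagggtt
Pcp2: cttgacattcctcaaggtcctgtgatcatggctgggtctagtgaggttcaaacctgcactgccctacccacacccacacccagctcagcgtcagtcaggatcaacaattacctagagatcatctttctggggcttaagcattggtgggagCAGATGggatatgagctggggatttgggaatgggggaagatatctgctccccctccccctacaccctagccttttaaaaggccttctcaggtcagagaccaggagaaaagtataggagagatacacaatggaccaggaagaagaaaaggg
An E-box stands in all 3 windows, at position -125 in Fat2, -242 in Neurod1, and -100 in Pcp2, counted from the start. The same letters occur in 72.3% of the 32851 promoter windows of the table, so their presence does not set these genes apart. Of the 3 windows, only that of Fat2 holds the Zic core, at position 23, and it occurs in 10.5% of windows. The window of Slc1a6, a Purkinje cell gene whose sequence is not shown, holds it too, at position -224. GC content was 43.7% in the Fat2 window, 66.7% in that of Neurod1 and 51.0% in that of Pcp2, against a median of 52.7% over the table. The RefSeq start used for Fat2 lies 24307 bases inside the GENCODE M21 gene from its 5′ end. The Fat2 window may therefore not be a promoter, and its marked letters and GC content may not describe one. The Pcp2 start, the nearest of 4 in the table, lies 2 bases from the GENCODE one.

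The deposited values are regularized logarithms (rlog, log2 scale), in which counts are scaled between libraries and the deviations of low genes are shrunk, so a difference understates the change of low genes. Depth per library is unknown. On replicate 1 stood apart from the other on libraries over all genes: Spearman's rho of the deviation from each gene's mean with transcript length, across genes, was -0.0592 in that library. It was 0.274 to 0.291 in on replicates 2 to 4, and negative in every off library, at -0.316 to -0.233. The same coefficient with GC content ran from -0.456 in on replicate 2 to 0.578 in off replicate 3. For that reason, differences are also given without on replicate 1 and after a correction in which smooth trends in GC content and length were taken out of each library. Leaving out on replicate 1 does not lessen the length trend: the on libraries left are all positive and the off libraries all negative. Uncorrected differences of long genes without that library, such as Fat2, therefore cannot be told apart from the trend.

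All 10 genes were expressed and all passed the filter at a mean rlog value of 3. Scaled to the length of the longest transcript (rlog minus log2 of kilobases), Itpr1 had the highest level, with a mean of 12.01 ± 0.09 (SD, n = 7). Zic1 followed at 10.07 ± 0.10, then Ppp1r17 at 9.66 ± 0.15, Neurod1 at 9.62 ± 0.15, Pcp2 at 9.37 ± 0.10 and Zic2 at 9.35 ± 0.10. The lowest levels per length were those of Slc1a6 (9.04 ± 0.05), Fat2 (8.11 ± 0.26), Zic4 (7.19 ± 0.10) and Barhl1 (5.02 ± 0.08). Neighbours in this order overlapped in their 7-library ranges from Ppp1r17 to Zic2, and did not overlap elsewhere. Other cerebellar markers were present too: all 22 further Purkinje cell genes passed the filter, with mean rlog values of 6.09 to 15.11, and 14 of 15 further granule cell genes, at 8.00 to 13.00. The exception was Atoh1, a transcription factor of granule cell progenitors, at -1.87 to -1.86 in every library.

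The comparison of on with off asks whether these neuron markers differ with the state of the constructs at 24 months. None of the 10 passed the limma threshold (adjusted p under 0.05), where 466 of 17896 tested genes (2.6%) did. Of all tested genes, 0.816% passed higher and 1.79% lower. After the GC and length correction the count was again 0 of 10, where 0.587% of all tested genes passed. Without the correction 3 of the 10, Fat2, Ppp1r17 and Itpr1, had an unadjusted p under 0.05, as did 20.7% of all tested genes. The difference was positive in 8 genes and negative in 2, with a median of 0.06 on the log2 scale over the 10 and of 0.0029 over all tested genes, of which 51.5% were positive. The plot of values by library shows how far the groups overlap: only Itpr1 had all on libraries above all off libraries, as did 7.13% of all tested genes, and 15.2% were without overlap in either direction.

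**Figure D1:**
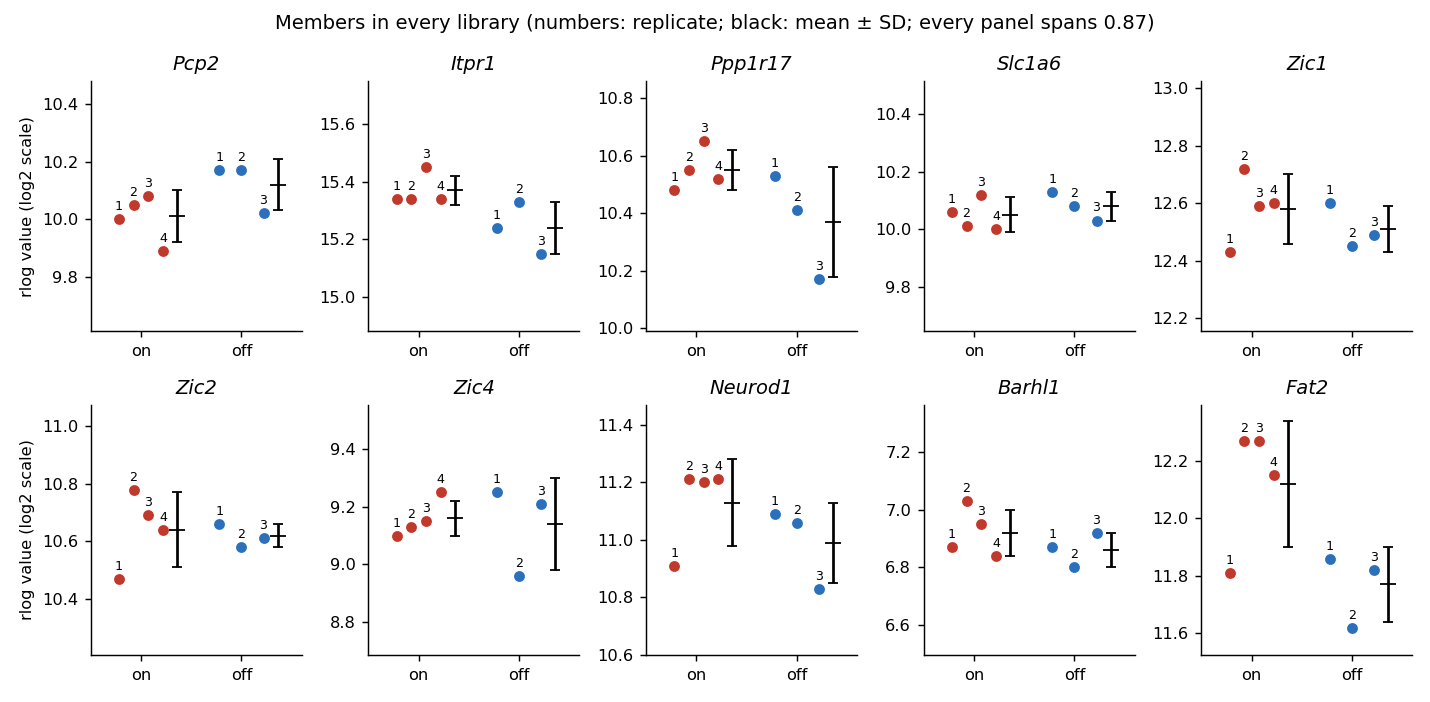
Rlog values (log2 scale, vertical axis) of the 10 genes in the 4 on and 3 off libraries; numbers are replicates, and black bars are the mean ± SD. On replicate 1 lies with or below the off libraries in Fat2, Neurod1, Zic1 and Zic2, while the Itpr1 panel has 15.34 or more in each on library and 15.33 or less in each off library.

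Of the Purkinje cell genes, Itpr1 encodes the type 1 IP3 receptor, the calcium release channel of the endoplasmic reticulum that Purkinje cells hold at very high levels. Its rlog values were 15.34, 15.34, 15.45 and 15.34 in on replicates 1 to 4 and 15.24, 15.33 and 15.15 in off replicates 1 to 3. The groups did not overlap, although on replicates 1, 2 and 4 lay only about 0.01 above off replicate 2. The difference was 0.13 ± 0.05 (SE, 95% interval 0.02 to 0.23, limma adjusted p = 0.171), and 0.04 ± 0.04 after the GC and length correction. Itpr1 spans 108213096 to 108551109 on the plus strand of chromosome 6, and its longest transcript of 9870 bases is among the long ones of the set.

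Ppp1r17, also called G-substrate, encodes a phosphatase inhibitor that is phosphorylated by cGMP-dependent protein kinase in Purkinje cells. It had 10.48, 10.55, 10.65 and 10.52 in on replicates 1 to 4 and 10.53, 10.41 and 10.17 in off replicates 1 to 3. Off replicate 3 was the lowest by a wide margin, and off replicate 1 lay among the on libraries. The difference of 0.18 ± 0.07 (SE, 95% interval 0.03 to 0.33, limma adjusted p = 0.165) was 0.08 without off replicate 3 and 0.21 without on replicate 1 (adjusted p = 0.0495), where 8.28% of all tested genes were called higher. After the GC and length correction it was 0.23 ± 0.06 (SE, adjusted p = 0.104). The gene lies at 56017497 to 56032689 on the plus strand of chromosome 6.

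Pcp2, or L7, encodes a modulator of G protein signalling that is found in Purkinje cells and in bipolar cells of the retina. Its values were 10.005, 10.05, 10.08 and 9.89 in on replicates 1 to 4 and 10.17, 10.17 and 10.02 in off replicates 1 to 3. Off replicate 3 lay within the on range. The difference was -0.11 ± 0.05 (SE, 95% interval -0.23 to 0.01, limma adjusted p = 0.263) and -0.06 ± 0.05 after the correction. Pcp2 lies wholly inside Pet100, a gene for an assembly factor of cytochrome c oxidase on the opposite strand (chromosome 8, 3623371 to 3625545), and 941 of its 1828 exonic bases are exonic in Pet100 as well. No source used here says whether reads were counted by strand, so the Pcp2 values are uncertain. Pet100 itself differed by -0.03 ± 0.05 (SE, limma adjusted p = 0.752).

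Slc1a6 encodes EAAT4, the glutamate transporter of Purkinje cell dendrites and spines. It varied least of the 10, with 10.06, 10.01, 10.12 and 10.001 in on replicates 1 to 4 and 10.13, 10.08 and 10.03 in off replicates 1 to 3. The groups overlapped almost fully. Its difference of -0.03 ± 0.05 (SE, 95% interval -0.13 to 0.07, limma adjusted p = 0.753) turned to 0.03 ± 0.04 after the GC and length correction.

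Set within 1 library, the Purkinje cell genes did not keep a constant ratio to each other. Ppp1r17 minus Pcp2, 2 genes with transcripts of similar length (1757 and 1606 bases), was 0.47 to 0.63 in the on libraries, against 0.15 to 0.37 in the off libraries. Itpr1 minus Pcp2 was 5.29 to 5.45 in the on libraries, against 5.08 to 5.16 in the off libraries, so neither difference overlapped between the groups. Itpr1 minus Slc1a6 did not overlap either, at 5.29 to 5.34 in on and 5.12 to 5.25 in off. After the GC and length correction Ppp1r17 minus Pcp2 was 0.47 to 0.64 in on and 0.20 to 0.34 in off, still apart. Both differences with Itpr1 overlapped after it, Itpr1 minus Pcp2 at 5.19 to 5.38 in on and 5.18 to 5.25 in off, and Itpr1 minus Slc1a6 at 5.22 to 5.29 in on and 5.18 to 5.34 in off. Of all 45 pairs among the 10 genes, 8 were without overlap before the correction and 5 after it. Taken singly, 15.2% of all tested genes were without overlap before it. The share over pairs of all tested genes was not computed, so the pair counts cannot set these genes apart. These pairs were chosen with the values known, and no test was made of them.

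Fat2 gave the largest difference of the 10. It encodes a giant atypical cadherin of granule cell parallel fibres and has the longest transcript of the set, 14528 bases. Its values were 11.81, 12.27, 12.27 and 12.15 in on replicates 1 to 4 and 11.86, 11.62 and 11.82 in off replicates 1 to 3. On replicates 2 to 4 lay above every off library, and on replicate 1 lay below off replicates 1 and 3. The difference was 0.36 ± 0.09 (SE, 95% interval 0.17 to 0.55), a ratio of 1.28 on this shrunken scale, and it missed the limma threshold at an adjusted p of 0.0515. An absolute difference of that size or more was found in 0.257% of all tested genes. Without on replicate 1 the Fat2 difference was 0.46 (limma adjusted p = 0.000125), where 8.28% of all tested genes were called higher. It was 0.43 with array weights (limma adjusted p = 0.00277), a fit that calls 6.04% of all tested genes higher. With any other single library left out it was 0.29 to 0.41 and did not pass. Set within 1 library, Fat2 minus Zic1 was -0.62 to -0.32 in on and -0.83 to -0.67 in off, without overlap, and overlapped after the correction at -0.66 to -0.38 in on and -0.75 to -0.65 in off. That pair too was chosen with the values known and not tested. The GC and length correction brought the on minus off difference of Fat2 itself to 0.24 ± 0.09 (SE, limma adjusted p = 0.2). With that correction and without on replicate 1 it was 0.33 ± 0.05 (SE, limma adjusted p = 0.00344). That fit was added after the data were seen and calls 5.45% of all tested genes higher. The gene spans 55250609 to 55336564 on the minus strand of chromosome 11.

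Neurod1, a bHLH transcription factor that drives granule cell differentiation and stays on in the adult, had 10.91, 11.21, 11.20 and 11.21 in on replicates 1 to 4 and 11.09, 11.06 and 10.83 in off replicates 1 to 3. On replicates 2 to 4 were nearly equal and above every off library, while on replicate 1 lay below off replicates 1 and 2. The difference of 0.14 ± 0.08 (SE, 95% interval -0.02 to 0.30, limma adjusted p = 0.321) was 0.21 without on replicate 1 (adjusted p = 0.0157), where 8.28% of all tested genes were called higher. After the correction it was 0.15 ± 0.07 (SE, limma adjusted p = 0.27). The gene, at 79452521 to 79456751 on the minus strand of chromosome 2, lies inside Cerkl on the same strand and shares 201 of its 2729 exonic bases with it, so its count may be affected by how shared reads were treated. Cerkl differed by 0.16 ± 0.07 (SE, limma adjusted p = 0.19), at a lower mean rlog value of 7.49.

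Zic1, Zic2 and Zic4 encode zinc finger transcription factors that are held through adult life in granule cells. Zic1 had 12.43, 12.72, 12.59 and 12.60 in on replicates 1 to 4 and 12.60, 12.45 and 12.49 in off replicates 1 to 3. Zic2 had 10.47, 10.78, 10.69 and 10.64 in on replicates 1 to 4 and 10.66, 10.58 and 10.61 in off replicates 1 to 3. In both genes on replicate 1 was the lowest of the 7 libraries and on replicate 2 the highest, and the groups overlapped. Zic4 had 9.10, 9.13, 9.15 and 9.25 in on replicates 1 to 4 and 9.25, 8.96 and 9.21 in off replicates 1 to 3, a different order in which off replicate 2 was the lowest. The differences were 0.07 ± 0.06 for Zic1 (SE, 95% interval -0.05 to 0.19, limma adjusted p = 0.513), 0.03 ± 0.06 for Zic2 (SE, 95% interval -0.10 to 0.16, adjusted p = 0.838) and 0.02 ± 0.07 for Zic4 (SE, 95% interval -0.12 to 0.16, adjusted p = 0.9).

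Zic1 and Zic4 are neighbours on chromosome 9, on opposite strands, and overlap from 91362413 to 91365810, where 60 bases are exonic in both. Zic2 lies on chromosome 14 (122475435 to 122479852, plus strand) beside Zic5 (122456795 to 122465677, minus strand). The difference Zic1 minus Zic2 within a library varied by no more than 0.09 over the 7 libraries, although the genes are on different chromosomes, whereas Zic1 minus Zic4, the overlapping pair, varied by 0.30. Corrected for GC content and length, Zic1 minus Zic2 was less even, at 1.80 to 1.99 in on and 1.94 to 2.02 in off. After the GC and length correction the Zic2 difference was 0.13 ± 0.08 (SE, adjusted p = 0.414), and without on replicate 1 as well it was 0.21 (adjusted p = 0.0284), a fit in which 5.45% of all tested genes were called higher. That of Zic4 was -0.01 ± 0.06 (SE) after the correction. Zic5, the neighbour of Zic2, differed by 0.16 ± 0.06 (SE, limma adjusted p = 0.153).

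Barhl1, a homeobox transcription factor of the granule cell lineage, was the lowest gene of the set. It had 6.87, 7.03, 6.95 and 6.84 in on replicates 1 to 4 and 6.87, 6.80 and 6.92 in off replicates 1 to 3, with overlapping groups. Its difference was 0.06 ± 0.06 (SE, 95% interval -0.07 to 0.18, limma adjusted p = 0.626). Its promoter window at chr2:28916619-28916918 (minus strand) holds the letters TGACCTA, the reverse complement of the ROR half-site TAGGTCA, 28 bases before the start, as do 2.61% of windows on either strand.

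**Figure D2:**
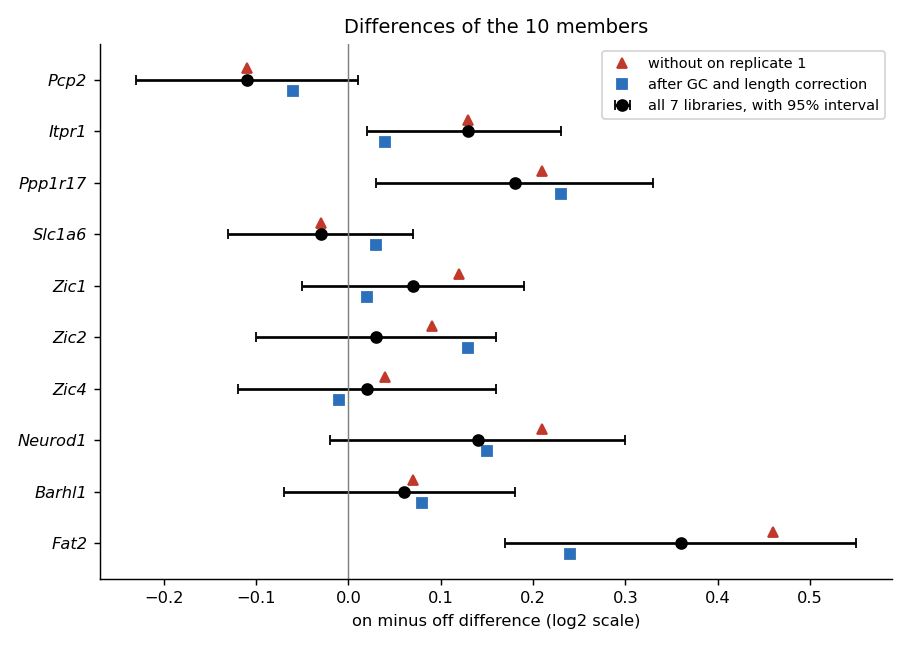
On minus off differences (horizontal axis, log2 scale) of the 10 genes: circles with 95% intervals are from all 7 libraries, triangles leave out on replicate 1 and squares follow the GC and length correction. Fat2 lies at 0.36, 0.46 and 0.24, and Itpr1 at 0.13 over all libraries and 0.04 after the correction.

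The Purkinje and granule cell genes lay on the same side of their means in some libraries and apart in others, as the plot of their mean deviations shows. The mean deviation of the 4 Purkinje cell genes from their own 7-library means was -0.00574, 0.0133, 0.101 and -0.037 in on replicates 1 to 4 and 0.0426, 0.0213 and -0.135 in off replicates 1 to 3. On replicate 3 was highest and off replicate 3 lowest, with the rest close to 0. For the 6 granule cell genes it was -0.114, 0.144, 0.0938 and 0.068 in on replicates 1 to 4 and 0.00993, -0.135 and -0.0668 in off replicates 1 to 3. On replicate 1 and off replicate 2 were low in the granule cell genes and not in the Purkinje cell genes: no granule cell gene lay above its mean in either, whereas 2 and 3 of the 4 Purkinje cell genes did. In on replicate 3 all 10 genes lay above their means, and in off replicate 3 only 2 did. With the correction, the mean deviations kept this order of highest and lowest libraries for the Purkinje cell genes (0.104 in on replicate 3, -0.138 in off replicate 3) and were 0.143 in on replicate 2 and -0.135 in off replicate 2 for the granule cell genes.

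**Figure D3:**
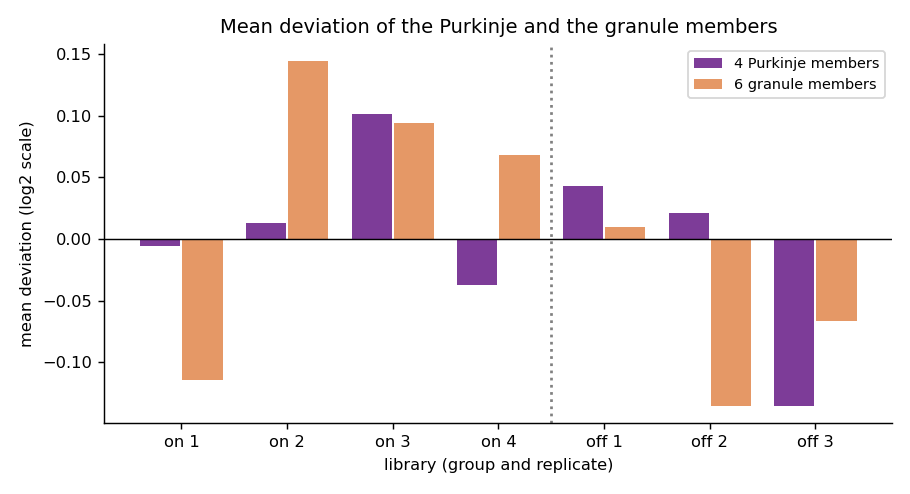
Mean deviation from each gene's own 7-library mean (vertical axis, log2 scale) of the 4 Purkinje and the 6 granule cell genes in each library. The granule bars run from -0.135 in off replicate 2 to 0.144 in on replicate 2, and the Purkinje bars from -0.135 in off replicate 3 to 0.101 in on replicate 3.

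Nearest profiles were sought among tested genes other than the 10, leaving out those whose symbol is a model or clone number. Nearest to the mean Purkinje profile over the 7 libraries were the centred values of Sla, Hdac8, Gtf2e2, Otub2 and Scel. Their root mean square distances were 0.0197, 0.02, 0.0214, 0.0244 and 0.0267. Nearest to the granule profile were Ogt, Ago4, Sec24a, Setdb1 and Gbp9, at 0.0201, 0.0223, 0.0232, 0.0243 and 0.0244. The profiles themselves had standard deviations of 0.0678 and 0.0998 over the libraries. With only 7 libraries and so many genes searched, near matches are easily found, and none of these 10 nearest genes passed the limma threshold.

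The wider lists of cerebellar genes gave 2 calls in 46 tested genes, 1 higher and 1 lower (44 did not pass), against 2.6% of all tested genes. Their median difference was 0.03. Hopx, a homeodomain protein that marks Bergmann glia and also other astroglia and dentate neurons, fell by 0.20 (SE 0.05, limma adjusted p = 0.0352), with 10.54 to 10.65 in the on libraries, against 10.73 to 10.88 in the off libraries. Corrected for GC content and length, the Hopx difference was -0.13 ± 0.04 (SE) and did not pass. Hopx also missed the threshold with any single library other than on replicate 1 left out, with limma adjusted p of 0.065 to 0.208.

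Of the 22 further Purkinje cell genes, 1 passed higher and 21 did not pass, with a median of 0.02, 12 positive and 10 negative. Calb1, the calcium buffer calbindin, differed by 0.01 ± 0.06 (SE, limma adjusted p = 0.95), and Car8, an inhibitor of IP3 binding to the Itpr1 receptor, by 0.17 ± 0.06 (SE, adjusted p = 0.164). Car8 was 13.09 to 13.28 in the on libraries, and 13.10, 13.13 and 12.84 in off replicates 1 to 3, so that its low library is the one that is low in Ppp1r17. Pcp4, a calmodulin regulator, lay lower in every on library (10.65 to 10.88) than in the off libraries (10.89 to 11.06), at -0.22 ± 0.06 (SE, limma adjusted p = 0.0622), and at -0.10 ± 0.05 after the correction. Of the 15 further granule cell genes 14 were tested and 0 passed in limma, 3 of them at an unadjusted p under 0.05, with a median of 0.08 and 12 positive. Nearest to the threshold was Il16, whose neuronal form is found in granule cells, at 0.23 ± 0.06 (SE, adjusted p = 0.0605), and Gabra6, the GABA-A receptor subunit of granule cells, differed by 0.15 ± 0.08 (SE, adjusted p = 0.314). Without on replicate 1, 13 of the 46 genes passed, 10 higher and 3 lower, where 16.3% of all tested genes passed.

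Along the pathway that acts on Itpr1, 24 genes were tested, and 1 passed higher and 23 did not. The exception was Ryr2, a ryanodine receptor of the same calcium stores, which rose by 0.20 ± 0.04 (SE, limma adjusted p = 0.0307) to 13.42 to 13.59 in the on libraries, against 13.31 to 13.35 in the off libraries. The Ryr2 call was lost after the correction (0.05 ± 0.03, SE, limma adjusted p = 0.432), with a replicate block (adjusted p = 0.221) and with any single library other than on replicate 1 left out (adjusted p 0.0702 to 0.146). Upstream, the phospholipase Plcb4 differed by 0.10 ± 0.04 (SE, adjusted p = 0.21). Among paralogs of the channel, Itpr2 differed by 0.13 ± 0.04 (SE, adjusted p = 0.106), and by 0.02 ± 0.03 after the correction. The other glutamate transporters beside Slc1a6 gave 0 calls in 3 tested genes (0 at an unadjusted p under 0.05), with the astrocyte transporter Slc1a2 at 0.10 ± 0.05 (SE, adjusted p = 0.259). Slc1a7 was not tested, at rlog values of 1.77 to 1.82.

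Markers of other places where the 10 genes are used were set beside them by library. Olfactory bulb genes deviated on average by -0.0784, -0.209, -0.247 and 0.0114 in on replicates 1 to 4 and by 0.198, 0.159 and 0.166 in off replicates 1 to 3. Of these 9 genes 4 were called lower, where 1.79% of all tested genes were. Their median difference was -0.27, with a summed level of 11.53 to 11.85 in on and 11.88 to 11.97 in off. After the correction 3 of them still passed, Omp, S100a5 and Doc2g, where 0.587% of all tested genes passed. None of those 3 passed with the correction and a replicate block together (limma adjusted p = 0.0996 for each). The granule cell genes, some of which the bulb also uses, did not share the library order of the bulb genes, being lowest in off replicate 2 and on replicate 1. Hippocampal neuron genes had a median of -0.09 with 2 of 9 called lower, C1ql2 at -0.36 ± 0.06 and C1ql3 at -0.18 ± 0.04 (SE), and a summed level of 13.50 to 13.60 in on and 13.57 to 13.70 in off. Neither C1ql2 nor C1ql3 passed after the correction (-0.22 and -0.12, limma adjusted p = 0.0759 and 0.151) or with a replicate block (adjusted p = 0.134 and 0.21). With 1 library left out, C1ql2 missed the threshold when the library dropped was on replicate 3 or either of off replicates 2 and 3 (limma adjusted p 0.0535 to 0.0778), and C1ql3 passed only without on replicate 1. No gene passed among 8 of thalamus, 11 of meningeal fibroblasts, 8 of forebrain neurons and 11 of brainstem in limma, with 3, 4, 3 and 0 at an unadjusted p under 0.05 and medians of 0.02, 0.07, -0.04 and -0.01. Their summed levels in on and off were 12.63 to 12.68 and 12.56 to 12.69 for thalamus, 13.02 to 13.11 and 12.97 to 13.04 for meninges, 13.49 to 13.57 and 13.47 to 13.67 for forebrain, and 11.84 to 12.11 and 11.78 to 12.00 for brainstem. Of the genes nearest to the threshold, Lef1 differed by 0.22 ± 0.06, Slc6a13 by 0.22 ± 0.08, Tbr1 by 0.16 ± 0.05 and Slc6a5 by 0.12 ± 0.06 (SE). Off replicate 2 was highest in forebrain genes (0.157) and lowest in the 6 granule cell genes (-0.135). Other cerebellar lists were not lowest there: it was at -0.0375 in the further granule cell genes. In the 4 Purkinje cell genes it was at 0.0213, and in the further Purkinje cell genes at 0.0333. The part of tissue make-up in any difference was not tested.

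**Figure D4:**
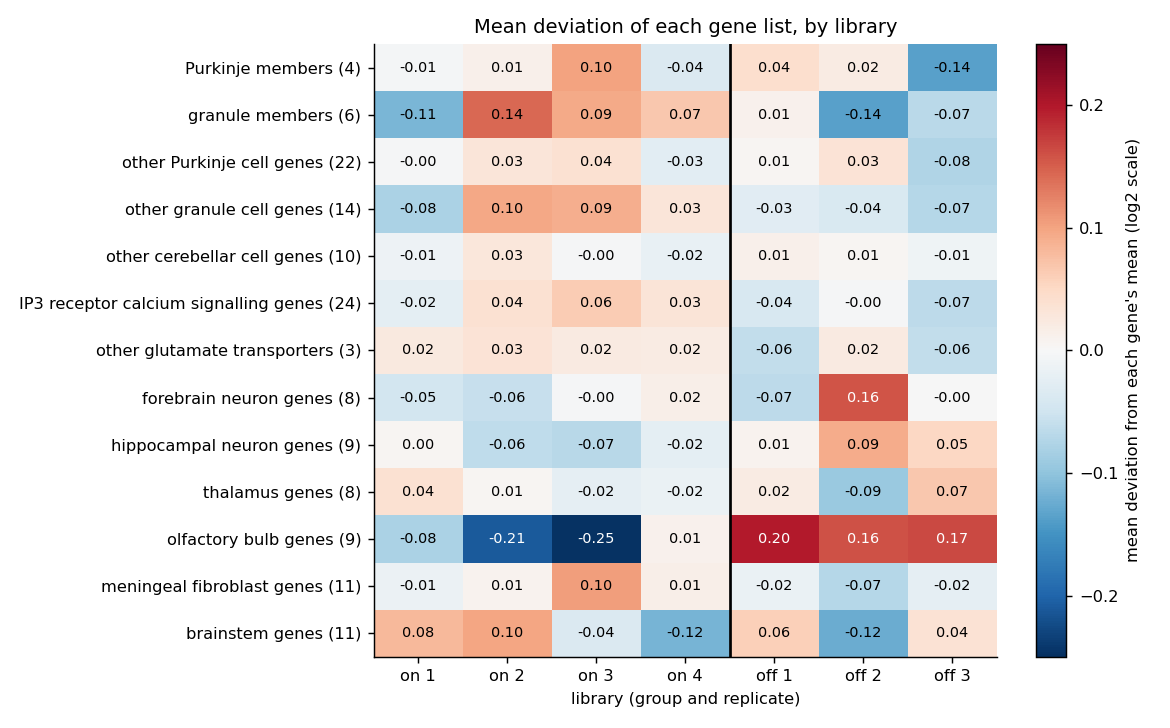
Mean deviation (colour and printed value, log2 scale) of each gene list, with its number of tested genes, in the 4 on libraries and, right of the line, the 3 off libraries. The further granule cell genes are lowest in on replicate 1 (-0.0797) and highest in on replicates 2 and 3 (0.0969 and 0.0909), while the 6 granule members are lowest in off replicate 2 (-0.135, against -0.0375 for the further genes), and both Purkinje lists are lowest in off replicate 3.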

How the data were processed

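Per the labels' protocols, a Qiagen miRNeasy kit gave the brain RNA and an Illumina stranded mRNA kit the libraries. Tools listed in the submitters' processing notes, with no role for each, are DESeq2 (1.16.1), Subread (1.5.3), STAR (2.5.2), BWA and cutadapt (1.9.1), with the build GRCm38. No source used here gives the annotation release, strand setting or rlog options. The authors deposited rlog values on the log2 scale. No counts were used, so depth cannot be stated and values carry no counting interval.

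Members, lists, tests and most alternatives were chosen with earlier results of these data known. Genes with a mean of 3 or more (17896) entered a limma fit (version 3.58.1, R 4.3.3) on group alone, with an intensity trend and Benjamini-Hochberg adjustment over all of them, at 0.05. Errors of differences are moderated SEs, and intervals are 95%. The GC and length correction removed smooth trends (mgcv 1.9.3, 3 classes of mean value) with properties of the longest GENCODE M21 transcript (GRCm38), known for 17831 genes (99.6%). The rule named all 10 members, up to 3 called genes of each list or the gene with the smallest p, and the 5 nearest profiles. Calb1, Car8, Pcp4, Gabra6, Plcb4, Itpr2 and Zic5, from those lists, and the overlapping genes Pet100 and Cerkl were added after their values were seen. A few listed genes are counted but not reported here by name. Methods were tested on simulated data. Alternatives were other filters, scalings and variance models, the correction, a replicate block and each library left out. No 2 libraries held identical values.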

Additional observations from a re-analysis of the deposited data

Results flagged for a closer look

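The distance of 1 on library from the other 3 was examined for 37 values: the 10 genes, 14 named genes and 13 lists. It was past Dixon's critical value in 3, and about 1.9 are expected by chance at 1 in 20. Itpr1 was 15.45 in on replicate 3 against 15.34 in each other on library. Neurod1 was 10.91 in on replicate 1 against 11.20 to 11.21 in the others. The olfactory gene Omp was 6.94 in on replicate 4 against 6.60 to 6.64. Their cause was not tested.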

How the results depend on the processing

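The fit with the trend removed and on replicate 1 left out was added after the data were seen. The number of genes called, 466, was 8 with no filter, 237 without the intensity trend, 2215 with array weights, 105 after the GC and length correction, 1787 after it without on replicate 1, and 43 to 2917 with 1 library left out. Of the 10 members 0 passed, against 1 (Fat2, 0.43) with array weights, where 12.4% of all tested genes passed. With 1 library left out 0 to 3 members passed, the 3 without on replicate 1, where 16.3% of all tested genes passed. After the correction without on replicate 1, 4 members passed, where 5.45% of all tested genes were called higher. There Fat2 was at 0.33, Neurod1 at 0.23, Ppp1r17 at 0.27 and Zic2 at 0.21. Of the further cerebellar genes 2 passed, against 0 with no filter, without the intensity trend or after the correction. With array weights 7 passed (12.4% of all tested genes), and 9 after the correction without on replicate 1 (9.99% of all tested genes). With 1 library left out 0 to 13 passed, the 13 without on replicate 1 (16.3% of all tested genes).

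With 1 library left out, Fat2 ran from 0.29 to 0.46, Neurod1 from 0.05 to 0.21, Ppp1r17 from 0.08 to 0.26, Zic2 from -0.02 to 0.09 and Zic4 from -0.07 to 0.07. Slc1a6 turned positive after the correction (0.03, and 0.04 also without on replicate 1), Zic4 negative (-0.01) and Slc1a2 negative (-0.02). Whether the replicate numbers pair the libraries is not known. Deviations of same-numbered on and off libraries had Pearson's r across genes of -0.228, -0.1 and 0.018. Each deviation is from its own group mean and carries the GC and length trends, so these values cannot settle the pairing. With a replicate block, in which on replicate 4 has no partner and drops out, 30 genes, 0 members and 0 further cerebellar genes passed, and Zic4 was at -0.01. With the replicate block and the correction together, 2 genes, 0 members and 0 further cerebellar genes passed, Zic4 was at -0.04, Slc1a6 at 0.04 and Slc1a2 at 0.00. Pcp2, Itpr1, Ppp1r17, Zic1, Neurod1, Barhl1 and Fat2 kept their sign in all 17 alternatives. The cause of these shifts was not tested. Shrinkage limits what the values of Barhl1 and other low genes can show.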
